A study of Homo sapiens with 9 samples.

Results

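Amino acid transporters of the cell membrane were followed in Jurkat, a long-established line grown from a human T-cell leukaemia, with and without editing of EZH2. The set holds 10 genes chosen by symbol: SLC7A8, SLC7A1, SLC7A5, SLC7A6, SLC7A11, SLC3A2, SLC1A4, SLC1A5, SLC38A1 and SLC38A2. They are 10 of the 26190 genes with values, and all 10 are among the 11737 genes that reached 1 FPKM in at least 3 libraries and were tested. SLC7A8 was put in the set because it showed a very large difference between each edited line and the unedited line, so its values in those comparisons are a description with no test. The other 9 genes were added for their function.

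The 3 groups of cultures were compared, with 3 libraries in each that the submitters describe as biological replicates. KO2 and KO1 are Jurkat lines edited at EZH2 with CRISPR/Cas9, and WT is the unedited Jurkat line. All were grown in complete RPMI medium with fetal bovine serum and antibiotics, with no drug named in the labels, and RNA was taken during exponential growth and made into mRNA libraries. Each of the 3 groups, WT included, is a single line. Differences of either edited line from WT, and between KO2 and KO1, therefore include whatever else separates the lines compared. The part of EZH2 editing in these differences was not tested. Every p-value rests on variation among replicates within the lines, and no group holds a second line. EZH2 is the enzyme of Polycomb repressive complex 2 and methylates histone H3 at lysine 27 (H3K27me3), a mark of silenced genes, and the title of the series concerns replication stress and inhibition of the checkpoint kinase CHK1. EZH2 transcripts were at 87.9, 89.9 and 90.7 FPKM in KO2 libraries, 108, 107 and 103 FPKM in KO1 libraries and 74.4, 77.6 and 79.5 FPKM in WT libraries, so the transcript was higher in both edited lines. A gene-level transcript value does not show whether an edit disrupted the protein and is no check of the labels.

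Amino acids cross the plasma membrane through solute carriers (SLC). SLC3A2, also known as CD98 or 4F2hc, is a single-pass heavy chain that brings light chains of the SLC7 family to the surface, where they exchange amino acids. Among these, SLC7A5 (LAT1) carries large neutral amino acids such as leucine, SLC7A8 (LAT2) carries a broader range of neutral amino acids, SLC7A6 (y+LAT2) exchanges cationic for neutral amino acids, and SLC7A11 (xCT) imports cystine in exchange for glutamate. SLC7A1 (CAT1) takes up arginine and lysine without a heavy chain, SLC1A4 (ASCT1) and SLC1A5 (ASCT2) exchange small neutral amino acids and, for SLC1A5, glutamine, and SLC38A1 (SNAT1) and SLC38A2 (SNAT2) take up glutamine, alanine and other neutral amino acids with sodium. In T cells these carriers are known to be induced on activation, with MYC among the factors involved, and amino acid shortage induces several of them through ATF4.

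Sequences before the start sites are shown for SLC7A8, whose transcript was close to 0 in WT, and for 4 members with a motif of a named factor family near the start. They are RefSeq promoter windows on GRCh38.p14, from 250 bases before the first transcribed base to 30 bases after it, printed 5′ to 3′ on the strand of the gene. Capitals mark CACGTG, the E-box bound by MYC-family factors, or TGATGNAA, the element of C/EBP-ATF dimers, searched on both strands. The deposited values were made on hg19, and these coordinates belong to GRCh38.p14 only. The windows are chr14:23183631-23183910 (minus strand) for SLC7A8 start 1, chr14:23154364-23154643 (minus) for SLC7A8 start 4, chr16:87869478-87869757 (minus) for SLC7A5 start 1, chr13:29595659-29595938 (minus) for SLC7A1 start 1, chr2:64989149-64989428 (plus) for SLC1A4 start 2 and chr12:46266487-46266766 (minus) for SLC38A1 start 2.
SLC7A8 start 1: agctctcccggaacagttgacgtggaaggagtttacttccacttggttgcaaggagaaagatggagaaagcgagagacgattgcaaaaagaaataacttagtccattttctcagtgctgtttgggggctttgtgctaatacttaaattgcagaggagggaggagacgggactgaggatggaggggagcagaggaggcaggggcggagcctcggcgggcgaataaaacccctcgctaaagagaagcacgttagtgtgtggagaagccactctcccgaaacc
SLC7A8 start 4: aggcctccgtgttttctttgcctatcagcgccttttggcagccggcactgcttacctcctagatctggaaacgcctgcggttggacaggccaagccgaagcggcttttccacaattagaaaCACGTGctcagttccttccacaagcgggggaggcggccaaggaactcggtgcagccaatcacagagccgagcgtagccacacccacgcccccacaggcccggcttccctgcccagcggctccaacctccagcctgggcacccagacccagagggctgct
SLC7A5 start 1: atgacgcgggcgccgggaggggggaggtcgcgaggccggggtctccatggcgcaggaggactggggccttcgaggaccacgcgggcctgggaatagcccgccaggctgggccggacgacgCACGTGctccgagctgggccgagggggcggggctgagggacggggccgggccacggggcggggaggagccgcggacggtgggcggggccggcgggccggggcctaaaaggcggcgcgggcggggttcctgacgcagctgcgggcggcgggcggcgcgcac
SLC7A1 start 1: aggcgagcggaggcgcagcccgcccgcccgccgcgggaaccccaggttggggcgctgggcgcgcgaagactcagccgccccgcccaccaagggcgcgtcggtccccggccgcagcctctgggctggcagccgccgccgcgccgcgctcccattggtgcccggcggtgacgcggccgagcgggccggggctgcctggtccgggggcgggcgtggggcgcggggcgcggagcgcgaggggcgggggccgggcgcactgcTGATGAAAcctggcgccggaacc
SLC1A4 start 2: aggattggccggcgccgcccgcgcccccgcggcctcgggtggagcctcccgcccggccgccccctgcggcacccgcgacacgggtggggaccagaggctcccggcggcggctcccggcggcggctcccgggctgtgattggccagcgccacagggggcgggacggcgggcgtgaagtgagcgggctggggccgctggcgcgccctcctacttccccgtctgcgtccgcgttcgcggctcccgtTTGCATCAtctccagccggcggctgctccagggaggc
SLC38A1 start 2: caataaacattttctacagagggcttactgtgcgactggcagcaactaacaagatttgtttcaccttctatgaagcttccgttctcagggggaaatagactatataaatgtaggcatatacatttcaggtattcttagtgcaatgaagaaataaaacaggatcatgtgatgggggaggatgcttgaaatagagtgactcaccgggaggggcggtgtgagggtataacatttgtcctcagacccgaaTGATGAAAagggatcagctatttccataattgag

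RefSeq windows were matched for 9 of the 10 members, 18 windows in all, and SLC7A11 was not matched. CACGTG occurred in 3 of the 18 windows, those of SLC7A8 start 4, SLC7A5 start 1 and SLC1A5 start 2, against 6.92% of all 34943 windows. TGATGNAA occurred in 4 of the 18, those of SLC7A1 start 1, SLC1A4 start 2, SLC1A5 start 3 and SLC38A1 start 2, against 3.45% of all windows. The antioxidant element TGACNNNGC was in 5 of the 18 and the GC box GGGCGG in 11 of the 18, against 12.4% and 44.0% of all windows. No window of a member held both of the motifs marked in capitals, and no marked match overlapped an antioxidant element or a GC box. The ratio of observed to expected CpG was 0.695 at SLC7A8 start 1, 0.112 at start 2, 0.103 at start 3 and 0.599 at start 4. Among the other printed windows it was 0.990 for SLC7A5, 0.981 for SLC7A1, 0.917 for SLC1A4 start 2 and 0.429 for SLC38A1 start 2, and the median over all windows was 0.571. Gene-level values do not tell which of the 4 SLC7A8 starts was used. A match describes letters in a window and is not a binding site.

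Markers of the T lineage were expressed in all groups, most of them at lower levels in the edited lines. Values are FPKM, fragments scaled to transcript length and library size, so they can be compared between genes per length. All 14 T-lineage markers, such as CD3E, CD7 and LCK, were at 1 FPKM or more in every library, with sums of 1708 to 1749 FPKM in KO2, 1459 to 1600 in KO1 and 1750 to 1854 in WT. Of the 14, 8 fell and 3 rose in KO2, with a median log2 fold change of -0.18. In KO1 11 fell and 3 rose, with a median of -0.34. Over all genes 26.6% fell and 38.1% rose in KO2, and 31.9% fell and 35.6% rose in KO1. The medians over all genes were 0.06 in KO2 and 0.02 in KO1. The 9 myeloid markers summed to 2.43 to 4.02 FPKM in KO2, 1.11 to 1.74 in KO1 and 0.0357 to 0.0933 in WT. S100A9 was at 1 FPKM or more in every KO2 library and at 0 in every WT library, while S100A8 was at 0 throughout. Of the 9, 1 was at 0 in every KO2 library, 3 in every KO1 library and 6 in every WT library. The 7 B-lineage markers summed to 19.6 to 23.0 FPKM in KO2, 50.0 to 59.5 in KO1 and 26.7 to 31.4 in WT. CD79A was at 1 FPKM or more in every library and BLK in every KO1 and WT library, while PAX5 was at 0 throughout. Sums of 7 fibroblast markers were 1.27 to 1.62 FPKM in KO2, 1.49 to 1.90 in KO1 and 0.462 to 0.554 in WT. COL1A1 was at 1 FPKM or more in every edited library, while COL3A1, LUM and DCN were at 0 throughout. Sums of 7 epithelial markers were 3.35 to 3.78 FPKM in KO2, 3.80 to 4.59 in KO1 and 3.82 to 4.07 in WT. ESRP1 was at 1 FPKM or more in every library, while KRT19 was at 0 throughout. The T-lineage, B-lineage, myeloid and fibroblast sums of either edited line did not overlap those of WT, nor did the epithelial sum of KO2, and the part of these differences in the results was not tested. In bulk RNA, fewer cells of a kind and less RNA per cell cannot be told apart.

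SLC7A8 was nearly absent from the unedited line and plainly present in both edited lines. KO2 libraries had 11.9, 12.3 and 10.3 FPKM, KO1 libraries 26.6, 26.1 and 25.2 FPKM, and WT libraries 0.0246, 0.140 and 0.241 FPKM. The groups do not overlap, and KO1 lies highest. On the log2(FPKM + 1) scale, used for every difference here because it damps noise of weakly expressed genes and understates their change, SLC7A8 was 3.46 higher in KO2 and 4.58 higher in KO1 than in WT. These differences were the 7th and the 5th highest of 11737 genes. Ranked by the smaller of its 2 differences SLC7A8 came 6th, just after the kinase gene TNIK (3.47) and just before the cyclin gene CCND2 (3.46). Because the WT level is far below 1 FPKM, the size depends on the added constant. With 0.1 in place of 1 the differences were 5.74 for KO2 and 6.91 for KO1. In KO2 the SLC7A8 level stood at the 46.5th percentile of the tested genes and in KO1 at the 71.7th, against the 1.44th in WT.

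**Figure D1:**
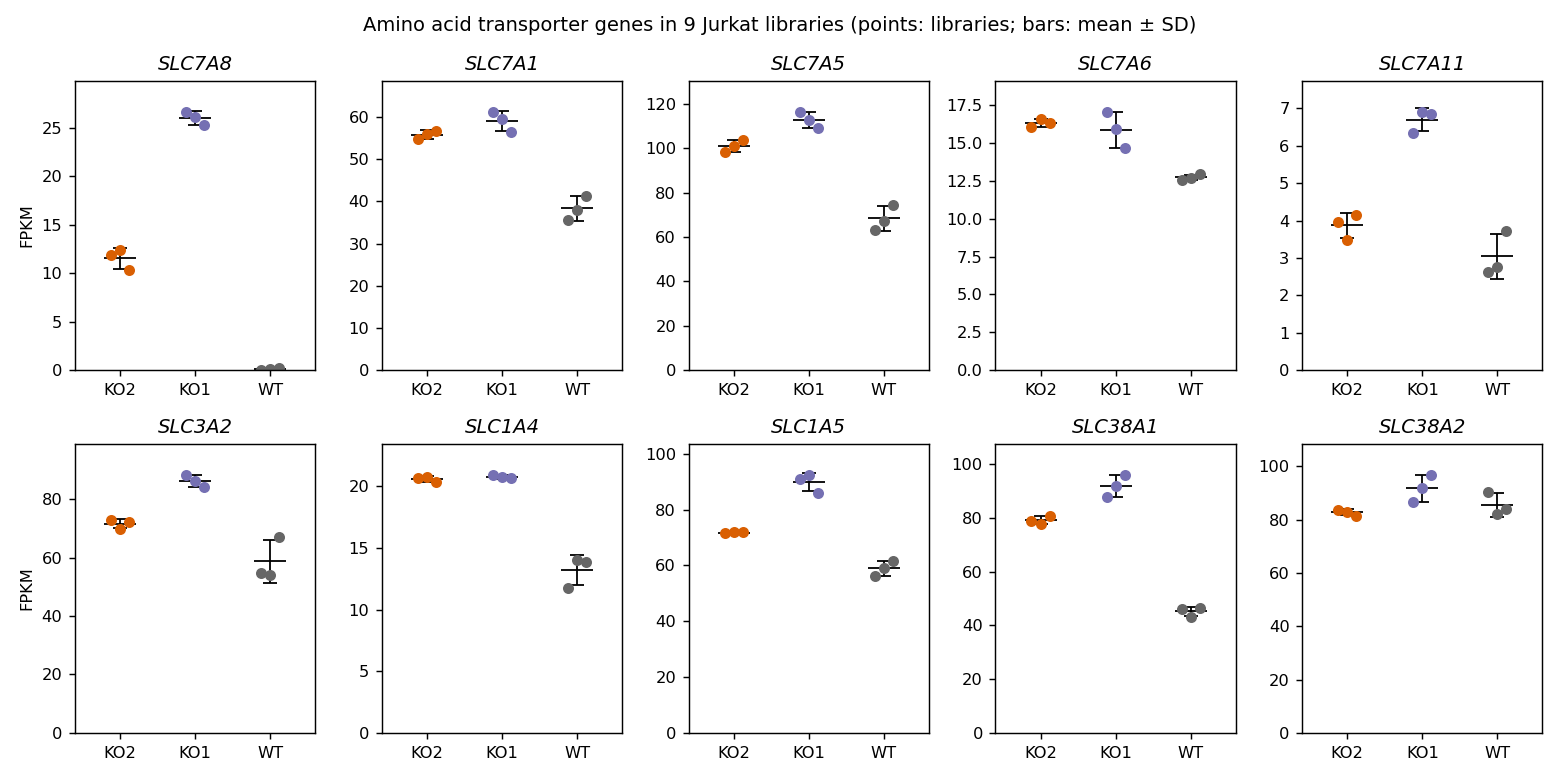
FPKM of the 10 transporter genes (vertical axes, each from 0) in KO2, KO1 and WT libraries; points are libraries and bars the mean ± SD of 3. SLC7A8 lies at 10.3 to 12.3 FPKM in KO2 and 25.2 to 26.6 FPKM in KO1, against at most 0.241 FPKM in WT, while SLC38A2 overlaps between the edited lines and WT.

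The heavy chain SLC3A2 rose in both edited lines. Its transcripts were at 72.9, 69.8 and 72.3 FPKM in KO2 libraries, 88.4, 86.2 and 84.4 FPKM in KO1 libraries, and 54.7, 54.2 and 67.2 FPKM in WT libraries. No library of either edited line fell within the WT range, although WT replicate 3 came close to KO2. The log2 fold change was 0.29 ± 0.07 in KO2 (SE; limma's moderated test with Benjamini-Hochberg adjustment over all 11737 genes, adjusted p = 0.00438) and 0.56 ± 0.07 in KO1 (adjusted p = 4.6e-05).

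SLC7A5, the main leucine carrier partnered by SLC3A2, was the most abundant light chain in every library. It measured 98.2, 101 and 104 FPKM in KO2, 116, 113 and 109 FPKM in KO1, and 63.3, 67.4 and 74.5 FPKM in WT. Every edited library lay above every WT library, and the rise passed the test in KO2 (log2 fold change 0.56 ± 0.06, adjusted p = 8.96e-06) and in KO1 (0.71 ± 0.06, adjusted p = 1.07e-06). The near-identical copy SLC7A5P1, which may share reads with it, was at 2.30 ± 1.19 FPKM in KO2, 2.48 ± 0.883 FPKM in KO1 and 1.58 ± 0.379 FPKM in WT.

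SLC7A6, which exports arginine in exchange for neutral amino acids such as glutamine, showed smaller rises. Its values were 16.1, 16.6 and 16.3 FPKM in KO2, 17.0, 15.9 and 14.7 FPKM in KO1, and 12.6, 12.7 and 12.9 FPKM in WT, with no overlap between edited and WT libraries. The log2 fold changes were 0.34 ± 0.06 in KO2 (adjusted p = 0.000394) and 0.30 ± 0.06 in KO1 (adjusted p = 0.000834). SLC7A6 overlaps SLC7A6OS on the opposite strand, at 9.71 ± 1.00 FPKM in KO2, 12.2 ± 1.24 FPKM in KO1 and 10.0 ± 1.14 FPKM in WT, and without stated strand in the counting their reads may be shared.

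SLC7A11, the cystine importer that feeds glutathione synthesis, was the least abundant member in the edited lines. It stood at 3.96, 3.49 and 4.16 FPKM in KO2, 6.34, 6.90 and 6.85 FPKM in KO1, and 2.63, 2.77 and 3.73 FPKM in WT. KO1 libraries lay well above WT and the rise passed the test (log2 fold change 0.94 ± 0.10, adjusted p = 1.43e-05). KO2 overlapped WT through KO2 replicate 2 and WT replicate 3, with a log2 fold change of 0.28 ± 0.10 (adjusted p = 0.0352). That call in KO2 passed under 11 of 19 alternative settings, with adjusted p of 0.00271 to 0.153, and was lost without KO2 replicate 1 (0.0870), KO2 replicate 3 (0.112), WT replicate 1 (0.119) or WT replicate 2 (0.111), as well as with no filter (0.0742), quantile normalization (0.153), median centring (0.0620) or a fit of KO2 and WT alone (0.0598).

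The light chains that share SLC3A2 were also set beside each other, with and without SLC7A8, since that gene was chosen for its difference. Summed over SLC7A5, SLC7A6, SLC7A7, SLC7A8, SLC7A10 and SLC7A11, light chain transcripts came to 131, 134 and 135 FPKM in KO2, 167, 162 and 157 FPKM in KO1, and 79.2, 83.9 and 91.8 FPKM in WT. SLC7A8 made up 9.09, 9.20 and 7.64% of that sum in KO2 and 15.9, 16.1 and 16.1% in KO1, against 0.0311, 0.167 and 0.263% in WT. With SLC7A8 counted in the sum, SLC7A5 made up 75.7 ± 0.996% in KO2, 69.5 ± 0.145% in KO1 and 80.5 ± 0.627% in WT (SD, n = 3 each). With SLC7A8 left out the order turned, and SLC7A5 made up 82.9 ± 0.363% in KO2, 82.8 ± 0.167% in KO1 and 80.6 ± 0.718% in WT. The sum per SLC3A2 transcript was 1.80, 1.92 and 1.87 in KO2, 1.89, 1.88 and 1.86 in KO1, and 1.45, 1.55 and 1.37 in WT. Without SLC7A8 the ratio was 1.63, 1.74 and 1.73 in KO2 and 1.59, 1.58 and 1.56 in KO1, still above the 1.45, 1.54 and 1.36 in WT, with no overlap. SLC7A7, the light chain of epithelial cells and macrophages, stayed under 1 FPKM in every library (0.715 ± 0.158 in KO2, 0.757 ± 0.0336 in KO1, 0.634 ± 0.265 in WT), and SLC7A10 was listed at 0 in all.

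**Figure D2:**
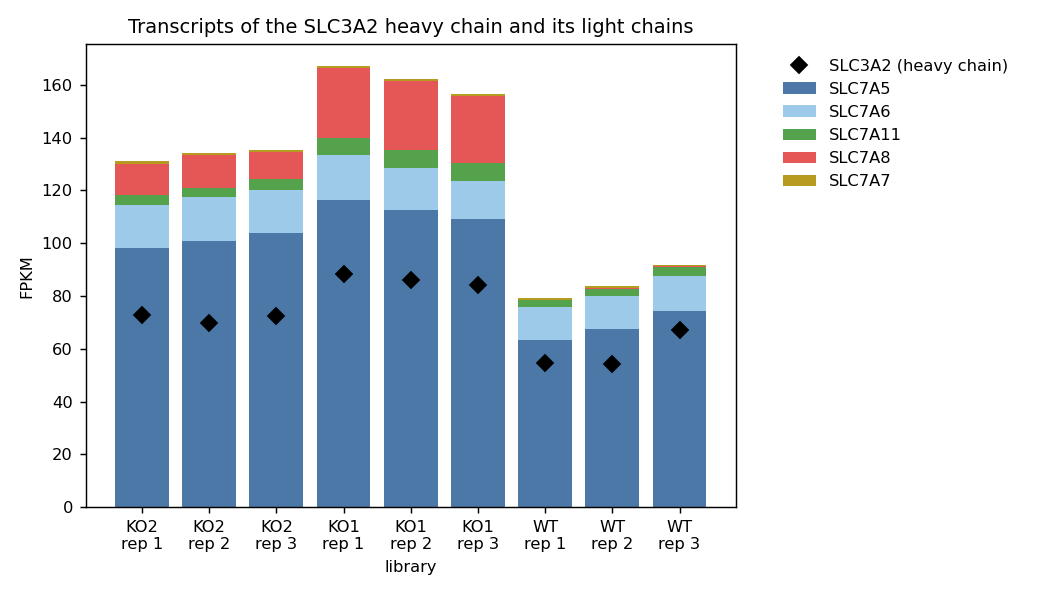
Stacked bars give FPKM of the light chains of SLC3A2 in each library of KO2, KO1 and WT, and diamonds give FPKM of SLC3A2 itself. The bars reach 131 to 135 in KO2 and 157 to 167 in KO1, against 79.2 to 91.8 in WT, and the SLC7A8 segment is visible in the edited lines only.

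The cationic amino acid carrier SLC7A1 rose to a similar level in both edited lines. It had 54.8, 55.9 and 56.8 FPKM in KO2, 61.2, 59.6 and 56.4 FPKM in KO1, and 35.6, 37.9 and 41.4 FPKM in WT. All edited libraries lay above all WT libraries, with log2 fold changes of 0.53 ± 0.05 in KO2 (adjusted p = 1.07e-05) and 0.61 ± 0.05 in KO1 (adjusted p = 2.95e-06).

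Both sodium-dependent exchangers of the SLC1 family rose as well. SLC1A4, which carries serine, alanine and cysteine, measured 20.7, 20.8 and 20.3 FPKM in KO2, 20.9, 20.7 and 20.6 FPKM in KO1, and 11.8, 14.0 and 13.8 FPKM in WT. Edited libraries differed little among themselves and all exceeded WT, with log2 fold changes of 0.61 ± 0.06 in KO2 (adjusted p = 9.71e-06) and 0.62 ± 0.06 in KO1 (adjusted p = 6.74e-06). SLC1A5, a glutamine exchanger, had 71.5, 72.0 and 71.9 FPKM in KO2, 91.2, 92.5 and 86.1 FPKM in KO1, and 56.2, 59.2 and 61.6 FPKM in WT. The 3 groups did not overlap, and the log2 fold changes were 0.28 ± 0.04 in KO2 (adjusted p = 0.000221) and 0.60 ± 0.04 in KO1 (adjusted p = 5.87e-07).

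The sodium-coupled carriers of neutral amino acids, SLC38A1 and SLC38A2, differed from each other. SLC38A1 had 78.8, 77.8 and 80.8 FPKM in KO2, 87.6, 91.8 and 96.0 FPKM in KO1, and 45.9, 43.2 and 46.3 FPKM in WT. Its groups lay far apart, with log2 fold changes of 0.80 ± 0.04 in KO2 (adjusted p = 1.29e-07) and 1.01 ± 0.04 in KO1 (adjusted p = 1.52e-08), and ratios of means to WT of 1.75 in KO2 and 2.03 in KO1. SLC38A2, the form most often described as induced by amino acid shortage, had 83.8, 82.9 and 81.5 FPKM in KO2, 86.7, 92.0 and 96.9 FPKM in KO1, and 90.6, 82.0 and 84.0 FPKM in WT. Both edited lines overlapped WT, and neither difference passed the test, at -0.05 ± 0.05 in KO2 (adjusted p = 0.439) and 0.10 ± 0.05 in KO1 (adjusted p = 0.0907). For KO1 it passed without WT replicate 1 (0.14, adjusted p = 0.0212) and without KO1 replicate 1 (0.14, adjusted p = 0.0306).

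Counted together without SLC7A8, 8 of the 9 other members rose in KO2 and 8 of 9 in KO1, and 0 fell in either. Over all tested genes 64.7% passed the test in KO2, with 38.1% higher and 26.6% lower than WT, and 67.5% passed in KO1, with 35.6% higher and 31.9% lower. Median log2 fold changes of the 9 members were 0.34 in KO2 and 0.61 in KO1, against 0.06 in KO2 and 0.02 in KO1 over all genes. In 7 of the 9 every KO2 library exceeded every WT library, which held for 40.3% of all genes, and in 8 of the 9 every KO1 library did, against 36.2% of all genes. The reverse, every edited library below every WT library, was seen in 0 of the 9 members, against 28.8% of all genes in KO2 and 32.4% in KO1. KO2 and KO1 are set against the same WT libraries, so these counts are not independent of each other. WT replicate 3 held the highest WT value of 8 of the 10 members and WT replicate 1 the lowest of 7.

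**Figure D3:**
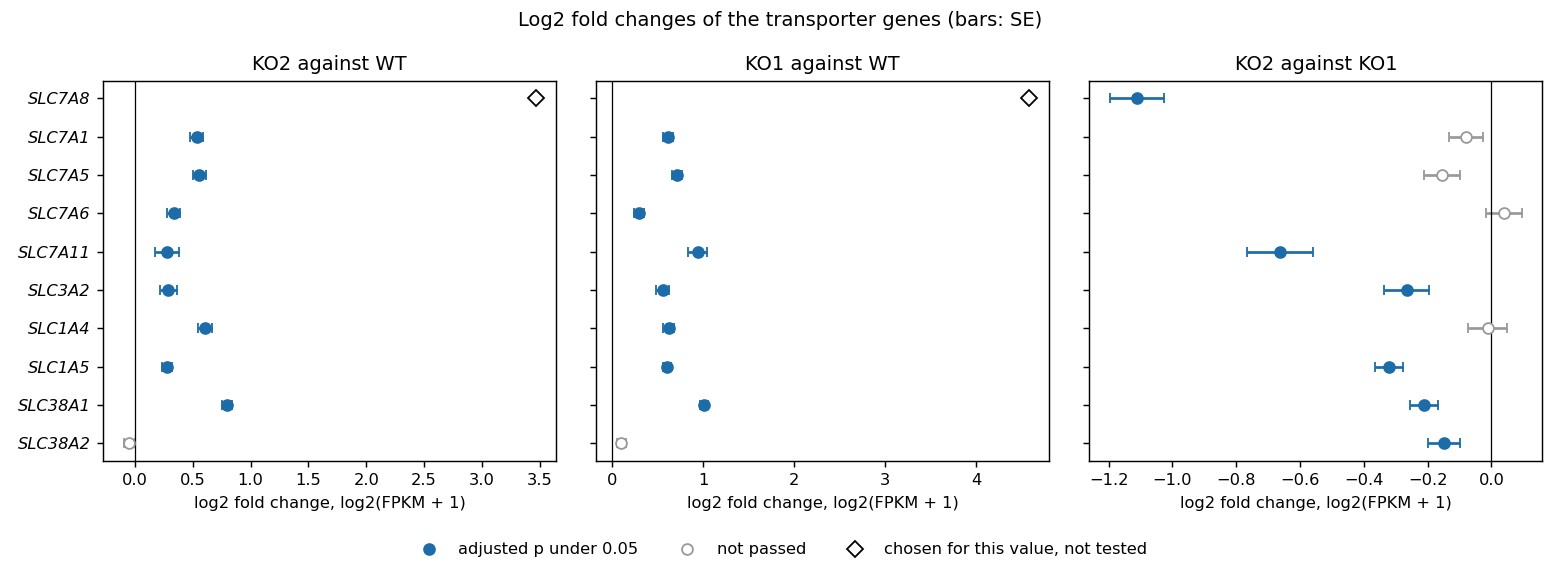
Log2 fold changes on the log2(FPKM + 1) scale with their SE for the 10 members in 3 comparisons; filled points passed the adjusted p of 0.05, open circles did not, and diamonds mark SLC7A8 where it was chosen for its value. Rises against WT run up to 0.80 in KO2 and 1.01 in KO1 for members other than SLC7A8, and between KO2 and KO1 the passing differences all lie below 0.

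The edited lines differed from each other in 6 of the 10 members, all lower in KO2 than in KO1, and 0 were higher in KO2. Over all genes 30.6% passed this comparison, 12.4% lower and 18.3% higher in KO2, and the median log2 fold change was -0.18 for the members against 0.04 for all genes. SLC7A8, which was not chosen on this contrast and is tested here, was lower in KO2 by a log2 fold change of -1.11 ± 0.09 (adjusted p = 8.21e-06). SLC7A11 followed at -0.66 ± 0.10 (adjusted p = 0.000826), SLC1A5 at -0.32 ± 0.04 (adjusted p = 0.000341), SLC3A2 at -0.27 ± 0.07 (adjusted p = 0.0169) and SLC38A1 at -0.21 ± 0.04 (adjusted p = 0.00514). SLC3A2 lost its call without KO2 replicate 2 (adjusted p = 0.0611). SLC38A2 was at -0.15 ± 0.05 (adjusted p = 0.0448) and passed under 10 of 19 alternatives. It was lost without WT replicate 3 (0.0575), KO1 replicate 2 (0.103) or 3 (0.144), or KO2 replicate 1 (0.0857), 2 (0.104) or 3 (0.119).

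Differences between the edited lines in the remaining members did not pass. SLC7A5 was at -0.16 ± 0.06 (adjusted p = 0.0586) although every KO2 library lay below every KO1 library, and it passed under 5 of 19 alternatives, among them without WT replicate 1 (0.0243) or WT replicate 3 (0.0222). SLC7A1 was at -0.08 ± 0.05 (adjusted p = 0.300), SLC1A4 at -0.01 ± 0.06 (adjusted p = 0.907) and SLC7A6 at 0.04 ± 0.06 (adjusted p = 0.634). Called genes were 59.7% higher in KO2 as deposited, 49.0% after quantile normalization and 47.9% after median centring, and 7 members were lower in KO2 under either scaling. In 7 of the 10 members every KO2 library was below every KO1 library, against 18.7% of all genes, and in 0 was every KO2 library above, against 28.7% of all genes.

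By level, SLC7A5 led both edited lines and SLC38A2 led WT. In KO2 the order ran SLC7A5, SLC38A2, SLC38A1, SLC1A5, SLC3A2, SLC7A1, SLC1A4, SLC7A6, SLC7A8 and SLC7A11, and of neighbours in this order the libraries of SLC1A5 and SLC3A2 alone overlapped. In KO1 it ran SLC7A5, SLC38A2, SLC38A1, SLC1A5, SLC3A2, SLC7A1, SLC7A8, SLC1A4, SLC7A6 and SLC7A11, with overlap between each pair of neighbours among SLC38A2, SLC38A1, SLC1A5 and SLC3A2. In WT it ran SLC38A2, SLC7A5, SLC1A5, SLC3A2, SLC38A1, SLC7A1, SLC1A4, SLC7A6, SLC7A11 and SLC7A8, and the overlapping neighbours were SLC1A5 with SLC3A2 and SLC1A4 with SLC7A6. SLC7A8 thus moved past SLC7A11 in KO2 and past SLC7A11, SLC7A6 and SLC1A4 in KO1.

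The genes whose pattern was most like that of SLC7A8 were taken by Pearson correlation of log2(FPKM + 1) over the 9 libraries. The libraries form 3 groups, so a high value says little beyond the order and relative spacing of the group means. The 5 highest were WWC1, CKAP4, FSTL1, U2AF1 and CTBP2, with correlations of 0.999 or more after rounding, and 402 of 11736 genes reached 0.98. WWC1, which encodes the Hippo pathway scaffold KIBRA, averaged 2.45 FPKM in KO2, 3.71 in KO1 and 0.149 in WT, and CTBP2, a transcriptional corepressor, 11.6 FPKM in KO2, 21.7 in KO1 and 0.283 in WT. With 0.1 added in place of 1, 2 of the 5 were kept. The 5 lowest were CEP128, C10orf107, PGK1, CAMK4 and PLEKHA2, of which 1 was kept with 0.1 added and 3 with 0.5. PGK1, a glycolytic enzyme, showed the reverse order of lines at 369 ± 12.7 FPKM in KO2, 285 ± 2.24 FPKM in KO1 and 906 ± 40.9 FPKM in WT. Among the members the correlation with SLC7A8 was 0.992 for SLC38A1, 0.984 for SLC7A5, 0.976 for SLC7A1, 0.961 for SLC1A4, 0.938 for SLC1A5, 0.913 for SLC3A2, 0.898 for SLC7A6, 0.837 for SLC7A11 and 0.321 for SLC38A2.

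Genes beside SLC7A8 on chromosome 14 did not all move the same way. Over all genes 38.1% were higher and 26.6% lower in KO2, and 35.6% higher and 31.9% lower in KO1. CEBPE, next to it in RefSeq order and encoding a transcription factor of granulocyte maturation, had 34.0, 27.2 and 28.5 FPKM in KO2, 18.8, 16.5 and 17.0 FPKM in KO1, and 2.11, 4.13 and 3.37 FPKM in WT. It rose by a log2 fold change of 2.90 in KO2 (adjusted p = 9.44e-08) and 2.16 in KO1 (adjusted p = 5.59e-07). CEBPE was higher in KO2 than in KO1 (log2 fold change 0.74, adjusted p = 0.00493), the opposite order to SLC7A8. C14orf119 averaged 38.5 ± 2.14 FPKM in KO2, 38.4 ± 0.773 FPKM in KO1 and 18.8 ± 1.31 FPKM in WT, with a log2 fold change of 1.00 in each line (adjusted p = 1.69e-07 in KO2 and 1.13e-07 in KO1). On the other side RNF212B was listed at 0 in every library. HOMEZ, a homeobox gene, rose by 0.48 in each line (adjusted p = 0.000431 in KO2 and 0.0004 in KO1), and PPP1R3E, a regulatory subunit of a glycogen phosphatase, fell, with log2 fold changes of -0.83 in KO2 (adjusted p = 2.42e-05) and -1.23 in KO1 (adjusted p = 9.76e-07). ACIN1, which encodes a nuclear splicing and apoptosis factor, rose by 0.35 in KO2 (adjusted p = 0.000198) and 0.47 in KO1 (adjusted p = 1.83e-05).

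**Figure D4:**
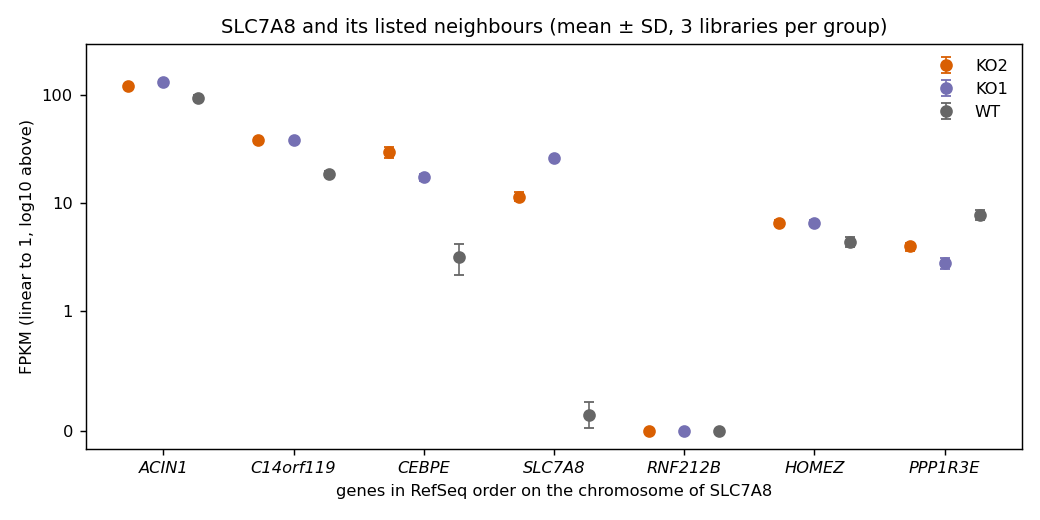
FPKM (mean ± SD of 3 libraries; axis linear to 1 and log10 above) of SLC7A8 and the 3 listed genes on each side of it in RefSeq order, in KO2, KO1 and WT. CEBPE is highest in KO2 and SLC7A8 in KO1, RNF212B is at 0, and PPP1R3E is highest in WT.

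Genes listed as other amino acid transporters of the cell surface moved in both directions. Of 39 listed genes 12 passed the filter. SLC1A3, SLC6A9 and SLC43A2 passed it through edited libraries alone, so their values are given with no test. Of the other 9, 6 rose and 1 fell in KO2 and 5 rose and 2 fell in KO1, against 38.1% higher and 26.6% lower in KO2 and 35.6% higher and 31.9% lower in KO1 over all genes. Their median log2 fold changes were 0.47 in KO2 and 0.24 in KO1. The 9 include SLC43A3 and SLC38A10, which rose in both lines, and SLC38A7, which rose in KO2. Whether these genes carry amino acids at the cell surface was not checked. The glutamate carrier SLC1A3 was at 1.44, 1.31 and 1.35 FPKM in KO2 and 1.74, 1.44 and 1.88 FPKM in KO1, and was listed at 0 in all WT libraries, so it has no fold change. The glycine carrier SLC6A9 averaged 1.15 ± 0.151 FPKM in KO2, 1.13 ± 0.199 FPKM in KO1 and 0.347 ± 0.200 FPKM in WT, and SLC43A2 (LAT4) averaged 1.06 ± 0.0242 FPKM in KO2, 0.809 ± 0.0157 FPKM in KO1 and 0.585 ± 0.0834 FPKM in WT. The branched-chain amino acid carrier SLC43A1 (LAT3), which needs no heavy chain, averaged 6.76 ± 0.252 FPKM in KO2, 7.71 ± 0.646 FPKM in KO1 and 4.61 ± 0.642 FPKM in WT, and rose in both lines (adjusted p = 0.000931 in KO2 and 0.000101 in KO1). SLC38A10, a relative of SLC38A1, averaged 14.7 ± 0.964 FPKM in KO2, 14.8 ± 0.327 FPKM in KO1 and 9.66 ± 0.867 FPKM in WT and rose in both (adjusted p = 4.4e-05 in KO2 and 3.05e-05 in KO1). The gene that fell in both lines, named after its value was seen, was the taurine carrier SLC6A6, with log2 fold changes of -0.20 in KO2 and -0.19 in KO1.

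Transporters of lysosomes and vesicles were 13 listed genes, of which 12 were found and 7 tested. In KO2 5 of the 7 rose and in KO1 3 of the 7, while 0 fell, against 38.1% higher in KO2 and 35.6% higher in KO1 over all genes, and the median log2 fold changes were 0.42 in KO2 and 0.17 in KO1. Under the alternatives 2 to 6 rose in KO2 and 1 to 3 in KO1. SLC38A9, the lysosomal arginine sensor upstream of mTORC1, averaged 13.8 ± 0.540 FPKM in KO2, 13.0 ± 0.358 FPKM in KO1 and 9.39 ± 0.563 FPKM in WT (log2 fold change 0.51 in KO2, adjusted p = 2.03e-05, and 0.44 in KO1, adjusted p = 5.93e-05). The proton-coupled carrier SLC36A1 averaged 5.04 ± 0.708 FPKM in KO2, 3.99 ± 0.852 FPKM in KO1 and 2.91 ± 0.313 FPKM in WT, with log2 fold changes of 0.62 in KO2 (adjusted p = 0.00185) and 0.34 in KO1 (adjusted p = 0.0409). The lysosomal cystine exporter CTNS averaged 2.67 ± 0.165 FPKM in KO2, 2.30 ± 0.285 FPKM in KO1 and 1.74 ± 0.143 FPKM in WT, with log2 fold changes of 0.42 in KO2 (adjusted p = 0.00158) and 0.26 in KO1 (adjusted p = 0.0202). The KO1 calls of SLC36A1 and CTNS were lost under some alternatives, among them without WT replicate 3 (adjusted p = 0.132 for SLC36A1 and 0.0501 for CTNS), without KO1 replicate 1 (0.141 for SLC36A1 and 0.0765 for CTNS), without WT replicate 2 (0.0581), KO1 replicate 2 (0.139) or KO2 replicate 3 (0.0537) for SLC36A1, and without WT replicate 1 (0.0624) or KO1 replicate 3 (0.0553) for CTNS.

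Genes of amino acid sensing and of mTORC1, the kinase complex that growth factors and amino acids switch on, moved in both directions. Of 38 tested, 10 rose and 8 fell in KO2, and 9 rose and 15 fell in KO1, with median log2 fold changes of 0.02 in KO2 and -0.13 in KO1. Over all genes 38.1% were higher and 26.6% lower in KO2, and 35.6% higher and 31.9% lower in KO1, so a smaller share of this list than of all genes passed in KO2. DDIT4, also known as REDD1, which restrains mTORC1 under stress, averaged 33.7 ± 6.39 FPKM in KO2 and 20.2 ± 0.992 FPKM in KO1, against 124 ± 5.43 FPKM in WT, and fell with log2 fold changes of -1.86 in KO2 (adjusted p = 1.72e-07) and -2.56 in KO1 (adjusted p = 1.17e-08). C7orf60, which encodes the S-adenosylmethionine sensor SAMTOR, fell to 5.28 ± 0.772 FPKM in KO2 and 4.99 ± 0.592 FPKM in KO1, against 9.24 ± 0.908 FPKM in WT (adjusted p = 0.000181 in KO2 and 8.24e-05 in KO1). SESN3, of the sestrin family that inhibits mTORC1, rose with log2 fold changes of 0.64 in KO2 (adjusted p = 0.000148) and 1.09 in KO1 (adjusted p = 2.4e-06). SEH1L, a nucleoporin that is also part of the GATOR2 complex, rose by 0.59 in KO2 (adjusted p = 1.3e-06) and 0.64 in KO1 (adjusted p = 5.36e-07).

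Enzymes that make and break down amino acids passed the test about as often as all genes. Of 30 tested, 12 rose and 7 fell in KO2, against 38.1% and 26.6% of all genes, and 14 rose and 7 fell in KO1, against 35.6% and 31.9%, with median log2 fold changes of 0.09 in KO2 and 0.17 in KO1. BCKDHA, a subunit of the complex that degrades branched-chain amino acids, averaged 20.4 ± 2.41 FPKM in KO2, 13.5 ± 0.661 FPKM in KO1 and 47.0 ± 3.27 FPKM in WT, and fell in both (adjusted p = 6.87e-07 in KO2 and 2.74e-08 in KO1). ARG2, which splits arginine, fell to 13.2 ± 0.676 FPKM in KO2 and 13.1 ± 0.374 FPKM in KO1, against 29.5 ± 2.01 FPKM in WT (adjusted p = 1.12e-07 in KO2 and 6.82e-08 in KO1). ASS1, which serves the synthesis of arginine, rose to 16.4 ± 1.40 FPKM in KO2 and 17.4 ± 1.08 FPKM in KO1, against 7.20 ± 0.748 FPKM in WT (adjusted p = 1.24e-06 in KO2 and 5.36e-07 in KO1). GLDC, of the glycine cleavage system, rose to 3.28 ± 0.0595 FPKM in KO2 and 4.93 ± 0.240 FPKM in KO1, against 1.16 ± 0.0587 FPKM in WT (adjusted p = 5.5e-07 in KO2 and 2.21e-08 in KO1).

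Genes that handle cystine and glutathione, downstream of SLC7A11, numbered 14 tested. In KO2 9 rose and 3 fell, against 38.1% and 26.6% of all genes, and in KO1 8 rose and 5 fell, against 35.6% and 31.9%, with median log2 fold changes of 0.21 in KO2 and 0.24 in KO1. GPX1, a glutathione peroxidase, averaged 58.2 ± 3.70 FPKM in KO2, 59.3 ± 2.77 FPKM in KO1 and 31.7 ± 1.22 FPKM in WT, and rose in both (adjusted p = 3.49e-07 in KO2 and 2.02e-07 in KO1). TXNRD1, a thioredoxin reductase, rose to 164 ± 3.16 FPKM in KO2 and 174 ± 4.98 FPKM in KO1, against 118 ± 8.75 FPKM in WT (adjusted p = 1.4e-05 in KO2 and 3.43e-06 in KO1). CHAC2, which degrades glutathione, rose by 0.50 in each line (adjusted p = 0.000664 in KO2 and 0.000589 in KO1). GGT1, the surface enzyme that splits extracellular glutathione, had 6.84, 7.53 and 6.55 FPKM in KO2 and 2.59, 2.04 and 2.67 FPKM in KO1, against 9.95, 11.3 and 11.7 FPKM in WT, and fell with log2 fold changes of -0.59 in KO2 (adjusted p = 0.000218) and -1.81 in KO1 (adjusted p = 3.87e-08). Chosen after their values were seen, the other genes that fell in both lines were GSS, glutathione synthetase (log2 fold change -0.33 in KO2 and -0.52 in KO1), and GPX4, the lipid peroxide reductase (-0.24 in KO2 and -0.29 in KO1).

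Among 16 transcription and stress-response genes known to act in the control of such transporters, all tested, 6 rose and 2 fell in KO2, against 38.1% and 26.6% of all genes, and 9 rose and 4 fell in KO1, against 35.6% and 31.9%, with median log2 fold changes of 0.15 in KO2 and 0.18 in KO1. MYC was at 144 ± 5.33 FPKM in KO2 and 141 ± 4.32 FPKM in KO1, against 71.1 ± 3.65 FPKM in WT, a log2 fold change of 1.01 in KO2 (adjusted p = 3.17e-08) and 0.98 in KO1 (adjusted p = 2.54e-08). Its paralog MYCN averaged 15.8 ± 1.17 FPKM in KO2, 28.1 ± 1.70 FPKM in KO1 and 1.50 ± 0.328 FPKM in WT, with log2 fold changes of 2.76 in KO2 (adjusted p = 5.44e-09) and 3.55 in KO1 (adjusted p = 5.58e-10). ATF4, the main transcription factor of the amino acid shortage response and regulated largely in translation, averaged 414 ± 3.88 FPKM in KO2, 454 ± 16.2 FPKM in KO1 and 398 ± 21.0 FPKM in WT. Its log2 fold change was 0.06 in KO2 (adjusted p = 0.240) and 0.19 in KO1 (adjusted p = 0.00253), and after quantile normalization KO2 passed too (0.12, adjusted p = 0.0140). TRIB3, a target of ATF4, rose by 0.52 in KO2 (adjusted p = 1.66e-05) and 0.37 in KO1 (adjusted p = 0.000164). PPP1R15A, a phosphatase subunit that restores translation after stress, fell with log2 fold changes of -0.53 in KO2 (adjusted p = 6.27e-05) and -0.45 in KO1 (adjusted p = 0.00017). ATF3, another stress-induced factor and named after its values were seen, fell with log2 fold changes of -0.50 in KO2 and -0.29 in KO1. Of the 16 genes 8 did not pass in KO2 and 3 did not pass in KO1. The part of these genes in the members' values was not tested.

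Proteins that escort transporters or mark them for removal were the last list, with 7 of 10 genes tested. SGK1 passed the filter through edited libraries alone and is left out of the count. Of the other 6, 5 rose in KO2 and 5 in KO1, while 0 fell, against 38.1% higher in KO2 and 35.6% higher in KO1 over all genes, with median log2 fold changes of 0.45 in KO2 and 0.65 in KO1. LAPTM4B, which brings SLC7A5 and SLC3A2 to lysosomes, averaged 75.0 ± 0.551 FPKM in KO2, 71.3 ± 3.76 FPKM in KO1 and 42.0 ± 0.925 FPKM in WT (adjusted p = 8.04e-08 in KO2 and 1.03e-07 in KO1). BSG (CD147), a chaperone of monocarboxylate carriers found in complexes with CD98, averaged 131 ± 3.37 FPKM in KO2, 126 ± 0.567 FPKM in KO1 and 92.1 ± 1.02 FPKM in WT (adjusted p = 3.41e-07 in KO2 and 6.48e-07 in KO1). The ubiquitin ligases NEDD4L, which acts on several amino acid carriers, and NEDD4 rose too. NEDD4L averaged 4.46 ± 0.171 FPKM in KO2, 6.30 ± 0.465 FPKM in KO1 and 2.25 ± 0.148 FPKM in WT, and NEDD4 12.7 ± 0.432 FPKM in KO2, 18.7 ± 0.663 FPKM in KO1 and 9.34 ± 0.531 FPKM in WT, with adjusted p of at most 9.84e-05 in each line.

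**Figure D5:**
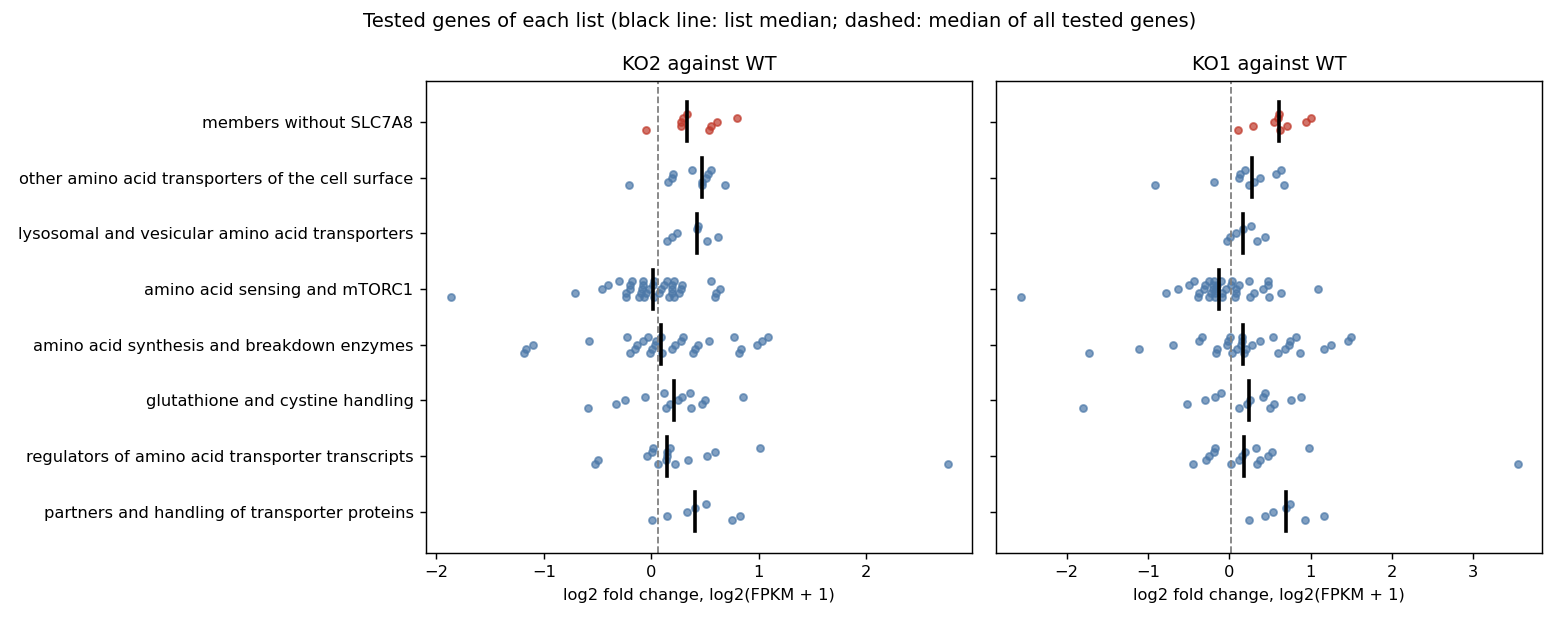
Each point is a gene that passed the filter, and its position is the log2 fold change on the log2(FPKM + 1) scale in KO2 and in KO1 against WT. Black lines are list medians without SLC7A8, and the dashed line is the median of all tested genes. The drawn medians include SLC1A3, SLC6A9, SLC43A2 and SGK1, which passed the filter through edited libraries alone. Medians in the text leave these genes out, so the drawn lines of their 2 lists differ from them. SLC7A8 and SLC1A3, which has no fold against a group at 0, are not drawn as points, and the other members lie above 0 in both panels except SLC38A2 at -0.05 in KO2.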

How the data were processed

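Gene expression was measured in 9 Jurkat libraries, whose titles give the group and replicate number. The authors deposited FPKM values in 1 table, a column per library. The submitters' processing notes name the build hg19 and the tools bedtools 2.7.0, Cufflinks 2.2.1 and STAR 2.5.0b, with no role or order. Annotation, strandedness and scaling across libraries: not given in the sources used here. Of 26228 rows, 38 that held text in place of values were left out. Read depth is unknown, so no counting interval is given. FPKM sums ran from 417737 to 439704, relative depth, estimated from the spacing of low values, was 0.963 to 1.16 times that of WT replicate 3, and 11028 to 11415 genes reached 1 FPKM per library. In KO2 replicate 1 the highest value, 10219 FPKM, was that of the small nucleolar RNA SNORD49B. There were 0 pairs of identical columns.

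Genes at 1 FPKM or more in at least 3 libraries were kept. A model of log2(FPKM + 1) was estimated by limma 3.58.1 (R 4.3.3), with a mean per group, all 9 libraries in the fit, empirical Bayes moderation with a trend, and Benjamini-Hochberg adjustment over all tested genes at a threshold of 0.05. The fit was tested on simulated data. The members, gene lists and tests were chosen with earlier results of these data known. Named genes are the members, up to 4 genes per list that passed in both edited lines in the same direction with the largest smaller change, the 5 highest and 5 lowest correlations with SLC7A8, 3 neighbours on each side, and MYC, MYCN and ATF4. Older symbols were matched for the lists, and SLC66A4 was not matched. Overlapping genes were taken from GENCODE annotation, and start windows from RefSeq on GRCh38.p14. Alternatives were pseudocounts of 0.1 and 0.5, no filter, a filter at 5 FPKM, quantile normalization, median centring, no trend, robust moderation, fits of the 2 groups compared, a replicate block and leaving out each library.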

Additional observations from a re-analysis of the deposited data

Results flagged for a closer look

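These results were picked out because the edited lines differed from each other, whether or not either differed from WT. The difference passed limma's test of KO2 against KO1 adjusted over all genes, in which 30.6% of all genes passed. Log2 fold changes of KO2 against KO1 were -1.11 for SLC7A8, -0.66 for SLC7A11, -0.27 for SLC3A2, -0.32 for SLC1A5, -0.21 for SLC38A1 and -0.15 for SLC38A2, so these members were lower in KO2. Their adjusted p ran from 8.21e-06 for SLC7A8 to 0.0448 for SLC38A2.

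Outside the members, DDIT4 was at 0.70, BCKDHA at 0.56, GGT1 at 1.22, CEBPE at 0.74 and PPP1R3E at 0.40, all higher in KO2. SESN3 was at -0.44, GLDC at -0.47, MYCN at -0.79, NEDD4L at -0.42, NEDD4 at -0.53 and ATF4 at -0.13, all lower in KO2. The ATF4 value (adjusted p = 0.0428) lost its call without WT replicate 2 (0.0577), KO1 replicate 1 (0.125) or 2 (0.113), or KO2 replicate 1 (0.111), 2 (0.0853) or 3 (0.105), and also with no filter (0.0804), with no trend (0.0929) and with the replicate block (0.0813). The genes ASNS (-0.68), GLUL (-1.55) and SLC38A5 (1.07) were singled out after their values were seen and also passed.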

How the results depend on the processing

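Over 19 alternatives, members other than SLC7A8 that rose numbered 7 to 8 in KO2 and 8 to 9 in KO1, and 0 fell. Between KO2 and KO1, 4 to 7 of the 10 members were lower and 0 higher. Leaving out each library gave one change of sign, SLC7A6 between KO2 and KO1, at -0.014 without KO1 replicate 3 and 0.088 without KO1 replicate 1, against 0.04 with all, where neither value passed. The SLC7A8 difference to WT depends on the added constant, at 4.25 in KO2 and 5.40 in KO1 with 0.5, and was 3.10 in KO2 and 4.25 in KO1 after quantile normalization. Scalings moved the median of all genes by under 0.1 on the log2 scale. All-gene counts ran from 3551 to 4818 higher and 2602 to 3674 lower in KO2, and from 3268 to 4863 higher and 3081 to 4034 lower in KO1, against WT. Read depth is unknown, so no counting error can be given for values under 1 FPKM, such as SLC7A8 in WT.

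With the replicate number as a block, 8 members rose in each edited line, and 5 were lower in KO2 than in KO1, where SLC38A2 lost its call (adjusted p = 0.0859), as did ATF4 (0.0813). Deviations of libraries with the same number correlated at -0.287 to 0.318, and of those with different numbers at -0.266 to 0.343. These ranges overlap, so they do not settle whether the numbers pair the samples.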

Other observations

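Further genes of the amino acid lists were singled out after their values were seen. GLUL, glutamine synthetase, moved in opposite directions in the edited lines. It averaged 80.8 ± 2.77 FPKM in KO2 and 239 ± 2.14 FPKM in KO1, against 184 ± 4.39 FPKM in WT (SD, n = 3 each), with log2 fold changes of -1.18 in KO2 (adjusted p = 2.2e-09) and 0.37 in KO1 (adjusted p = 5.26e-06). Of the SLC1 and SLC38 members that carry glutamine, SLC1A5 and SLC38A1 rose in both lines. SLC38A2 did not pass in KO2 (-0.05, adjusted p = 0.439) or in KO1 (0.10, adjusted p = 0.0907). ASNS, asparagine synthetase and a target of ATF4, averaged 28.7 ± 0.399 FPKM in KO2 and 46.6 ± 1.53 FPKM in KO1, against 16.0 ± 1.91 FPKM in WT, with log2 fold changes of 0.81 in KO2 (adjusted p = 2.88e-06) and 1.49 in KO1 (adjusted p = 2.26e-08). SLC38A5, another sodium-coupled glutamine carrier, averaged 6.16 ± 0.665 FPKM in KO2 and 2.46 ± 0.671 FPKM in KO1, against 5.43 ± 0.813 FPKM in WT. It fell in KO1 (log2 fold change -0.91, adjusted p = 0.000203) and did not pass in KO2 (0.16, adjusted p = 0.350).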
